A study of Mus musculus with 8 samples.

Results

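The C/EBP genes Cebpa, Cebpb, Cebpd, Cebpg and Cebpz were followed in mouse calvarial osteoblast cultures treated with parathyroid hormone (PTH). These 5 genes were taken by symbol from the 47706 rows of the gene count table, and all 5 were among the 16736 genes with enough counts to be tested. RNA was sequenced from 8 samples, 4 treated with PTH and 4 with vehicle (PBS) for 24 hours after 7 days of differentiation. The hormone was given as the fragment teriparatide, which the paper also calls PTH. The cells were osteoblasts released by collagenase from the skullcap of newborn mice, grown with ascorbic acid and β-glycerol phosphate and serum-starved before treatment. The strain is not given in the sources used here, and neither is the meaning of the prefix Con that the titles of both groups carry. No source says whether the 4 samples of a group came from separate cultures, so p-values measure the spread between these samples, which may be technical.

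The treatment field of the samples calls the differentiation adipogenic, whereas the series describes osteoblasts. In these samples 11 osteoblast markers had a median of 188 to 322 CPM (counts scaled to library size), and 8 adipocyte markers had a median of 2.67 to 5.24 CPM. Total counts were between 33605610 and 56090654 per sample. Tnfsf11, the RANKL gene and a check of the labels, ranged from 115 to 157 CPM in the PTH and from 0.987 to 1.79 CPM in the vehicle samples. Macrophage markers were also present: the sum of 11 such genes was 1583 to 2055 CPM with PTH and 1009 to 1639 CPM with vehicle, and 3 of them (Lyz2, Tyrobp and Spi1) were upregulated. In bulk RNA, more or fewer cells of a type and more or less RNA per cell cannot be told apart.

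C/EBP proteins are basic leucine zipper (bZIP) transcription factors that bind DNA as dimers, either with each other or with related bZIP proteins. C/EBPβ and C/EBPδ are known as early, signal-responsive members in inflammation and in the differentiation of fat and bone cells. C/EBPα is linked to growth arrest and to the mature state of liver, fat and myeloid cells, and C/EBPγ lacks an activation domain and pairs with other members and with ATF4. In osteoblasts, C/EBPβ and C/EBPδ can act with RUNX2 at the osteocalcin promoter. Cebpz shares the name but not the zipper: its product is a nucleolar protein of ribosome assembly that has also been described as a CCAAT-binding factor.

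Expression of Cebpb and Cebpd was about 10-fold or more higher with PTH, Cebpz rose by a smaller amount, and no change of Cebpa or Cebpg was detected. In numbers, 3 of the 5 genes were upregulated and 0 were downregulated at an adjusted p under 0.05 (edgeR's quasi-likelihood test, Benjamini-Hochberg adjustment). Of all genes tested, 23.3% were upregulated and 22.5% downregulated, or 45.8% in either direction. No C/EBP gene was lower at an unadjusted p under 0.05 either, by edgeR (0 genes) or by DESeq2 (0 genes). The groups did not overlap for 3 of the 5 genes, against 43.0% of all genes tested. The median log2 fold change of the 5 genes was 0.32, which is the value of Cebpz, beside -0.000814 over all genes tested.

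Cebpb is a gene of 1 exon at chr2:167688915-167690418 on the plus strand (GRCm38, GENCODE M21). With vehicle it had 37.4, 38.8, 38.5 and 41.0 CPM in replicates 1 to 4, and with PTH it had 432, 345, 376 and 411 CPM. The lowest PTH sample was 8.43 times the highest vehicle sample. The mean was 38.9 ± 1.496 CPM in the vehicle and 391 ± 38.1 CPM in the PTH samples (SD, n = 4). The log2 fold change was 3.33 (SE 0.0842, 95% interval 3.14 to 3.51, adjusted p = 2.83e-11, edgeR), which is a 10.05-fold rise. An exact two-sided permutation test on log2(CPM + 0.1) gave p = 0.0286, the smallest that the 70 assignments of 4 and 4 samples allow.

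Cebpd, also a gene of 1 exon (chr16:15887286-15891031, plus strand), had 22.3, 20.02, 19.2 and 20.3 CPM with vehicle. With PTH it had 276, 236, 247 and 256 CPM. Every PTH sample stood at least 10.6 times above the highest vehicle sample. Mean expression went from 20.5 ± 1.31 to 254 ± 17.0 CPM. It was upregulated by a log2 fold change of 3.63 (SE 0.0785, 95% interval 3.46 to 3.80, adjusted p = 1.07e-11, edgeR), a 12.4-fold rise. Among the 16736 genes tested, Cebpd ranked 172 and Cebpb ranked 197 by log2 fold change, within the 243 genes whose log2 fold change was at least 3.

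Cebpz, with 16 exons at chr17:78919006-78937066 on the minus strand, had 43.6, 44.3, 46.2 and 45.0 CPM with vehicle. In the PTH samples its level was 62.2, 54.0, 56.1 and 51.3 CPM. The groups did not overlap, but the lowest PTH sample was only 1.11 times the highest vehicle sample. The log2 fold change was 0.32 (SE 0.0701, 95% interval 0.17 to 0.47, adjusted p = 0.00262, edgeR), a 1.25-fold rise. Of all genes tested, 52.9% changed by more than this on the log2 scale in either direction.

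Cebpa (chr7:35119293-35121928, plus strand) had 78.2, 73.8, 81.6 and 68.8 CPM with vehicle and 78.3, 68.4, 71.4 and 71.6 CPM with PTH. The groups overlapped over most of their range. The log2 fold change was -0.06 (SE 0.0709, adjusted p = 0.507, edgeR), with a 95% interval from -0.22 to 0.09. Cebpg lies 62.7 kb away (chr7:35046422-35056573, minus strand). It had 35.1, 32.5, 33.1 and 35.1 CPM with vehicle and 28.2, 39.9, 35.7 and 32.7 CPM with PTH. The PTH samples spread on either side of the vehicle samples, and the log2 fold change was 0.00 (SE 0.0969, 95% interval -0.21 to 0.22, adjusted p = 0.972, edgeR). These intervals leave room for small changes of either gene.

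The remaining family genes were at the floor or without a detected change. Cebpe, the member of the granulocyte lineage, had 6 counts in vehicle replicate 3 and 0 counts in the other 7 samples, too few to be tested. Ddit3 encodes CHOP, a stress-induced bZIP protein that is also called C/EBPζ and is not the product of Cebpz. It was at 14.8 ± 1.97 CPM in the vehicle and 15.7 ± 2.71 CPM in the PTH samples, with overlapping groups (log2 fold change 0.09, adjusted p = 0.627, edgeR).

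**Figure D1:**
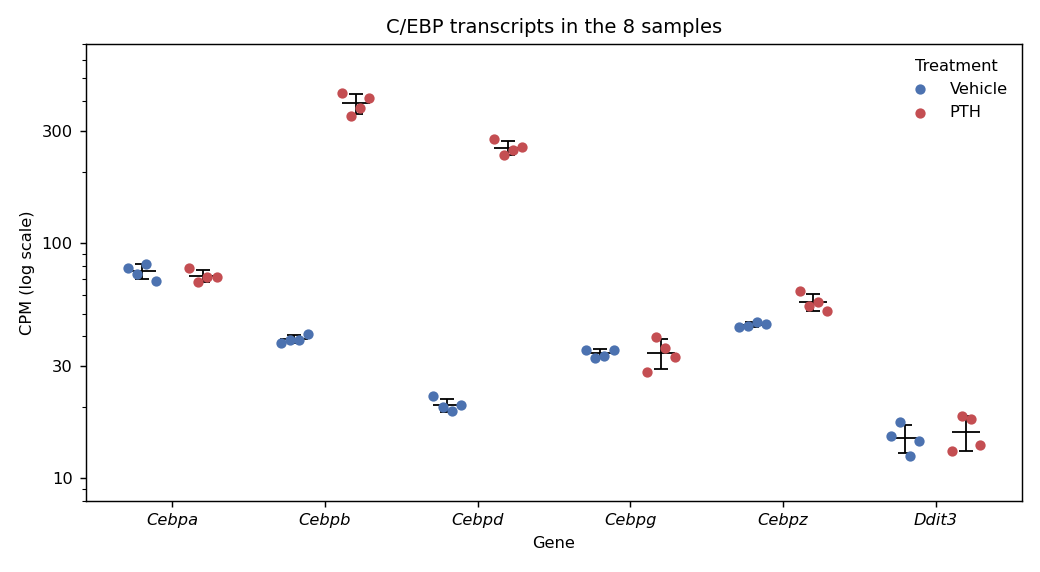
Expression of Cebpa, Cebpb, Cebpd, Cebpg, Cebpz and Ddit3 in CPM on a log axis. Points are the 4 samples of each treatment, horizontal bars are means and error bars are SD. For Cebpb and Cebpd all PTH samples lie far above all vehicle samples, for Cebpz they lie just above, and for Cebpa, Cebpg and Ddit3 the treatments overlap.

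RefSeq promoters on GRCm38.p6 were matched for 3 of the 5 genes, Cebpb, Cebpa and Cebpg. None was matched for Cebpd or Cebpz, which also rose. The 250 bases before the start of the 3 matched genes are printed to set a gene that rose beside relatives with no detected change. Letters are in capitals where they spell TGACG or its reverse complement CGTCA, the half-site of the cAMP response element, the DNA element of CREB and CREM, which the cAMP pathway of the PTH receptor regulates. The windows are chr2:167688665-167688914 (plus strand), chr7:35119043-35119292 (plus strand) and chr7:35056567-35056816 (minus strand), each written 5′ to 3′ along its gene.
Cebpb: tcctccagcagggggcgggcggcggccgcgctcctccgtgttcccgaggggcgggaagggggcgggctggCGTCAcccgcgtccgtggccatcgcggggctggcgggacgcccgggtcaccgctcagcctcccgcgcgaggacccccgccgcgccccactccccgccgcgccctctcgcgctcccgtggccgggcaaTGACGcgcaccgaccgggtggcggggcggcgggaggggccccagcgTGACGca
Cebpa: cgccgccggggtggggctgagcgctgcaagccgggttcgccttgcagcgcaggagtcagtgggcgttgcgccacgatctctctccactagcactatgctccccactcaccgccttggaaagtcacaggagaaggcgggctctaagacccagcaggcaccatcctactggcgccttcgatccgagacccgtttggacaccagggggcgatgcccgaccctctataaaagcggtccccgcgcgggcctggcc
Cebpg: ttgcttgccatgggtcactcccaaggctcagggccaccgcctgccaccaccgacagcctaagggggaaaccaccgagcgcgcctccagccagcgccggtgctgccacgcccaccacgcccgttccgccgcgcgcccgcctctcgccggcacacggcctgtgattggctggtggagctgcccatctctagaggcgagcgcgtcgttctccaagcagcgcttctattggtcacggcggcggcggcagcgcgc

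The Cebpb window held 3 half-sites, which spanned bases 180 to 176, 53 to 49 and 7 to 3 before the start, the first of them on the reverse strand. The windows of Cebpa and Cebpg held none. Of 32817 RefSeq promoter windows of the same length, 17.7% held at least 1 half-site on either strand and 0.689% held at least 3 matches. The full palindrome TGACGTCA, which contains the half-site on both strands, was in 1.55% of promoters and in none of these windows. The Cebpa window held TATAAA at bases 30 to 25 before the start (12.4% of promoters held it), and that of Cebpg held the reverse complement of CCAAT at bases 89 to 85 and 28 to 24 (33.8% of promoters). The C/EBP pattern TTNNGNAA (36.8% of promoters) and the STAT pattern TTCNNNGAA (7.01%) were in none of these windows. GC content was 81.6% in the Cebpb window, 66.4% in that of Cebpa and 70.8% in that of Cebpg, beside a median of 52.4% over all promoters. The shares of promoters given here were not matched for GC content, so they do not give how common 3 half-sites are in windows like that of Cebpb. A match describes letters, not binding, and the absence of a match covers these windows only.

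The responses were then compared between genes by the log2 ratio of each pair within a sample, over 10 pairs. Cebpd rose more than Cebpb. The Cebpb/Cebpd log2 ratio of CPM was 0.93 ± 0.12 with vehicle and 0.62 ± 0.06 with PTH, a difference of -0.30 (95% interval -0.47 to -0.14). The ratio was 1.68, 1.93, 2.0 and 2.01 in the vehicle samples and 1.56, 1.47, 1.52 and 1.61 in the PTH samples. All PTH ratios were below all vehicle ratios, with vehicle replicate 1 the nearest (exact permutation p = 0.0286, adjusted p = 0.0357 over the 10 pairs).

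The Cebpa/Cebpz log2 ratio was lower by 0.38 with PTH, with the same exact permutation p of 0.0286 and adjusted p of 0.0357. Cebpa itself had no detected change, and Cebpz rose. The 6 pairs of Cebpb or Cebpd with each of the other genes differed at the same p by 3.004 or more. Pairs share genes, so their tests depend on each other. The tests of those 6 pairs give no evidence apart from the rises of Cebpb and Cebpd. Cebpa and Cebpg did not differ detectably in response: their log2 ratio changed by -0.06 with a 95% interval of -0.45 to 0.33 (exact permutation p = 0.714, adjusted p = 0.714). For Cebpg and Cebpz the difference was -0.32 with an interval of -0.70 to 0.05 (exact permutation p = 0.0857, adjusted p = 0.0952). PTH replicate 1 had the lowest Cebpg and the highest Cebpz, and its ratio of 0.454 was below the 0.636 to 0.739 of the other PTH samples.

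**Figure D2:**
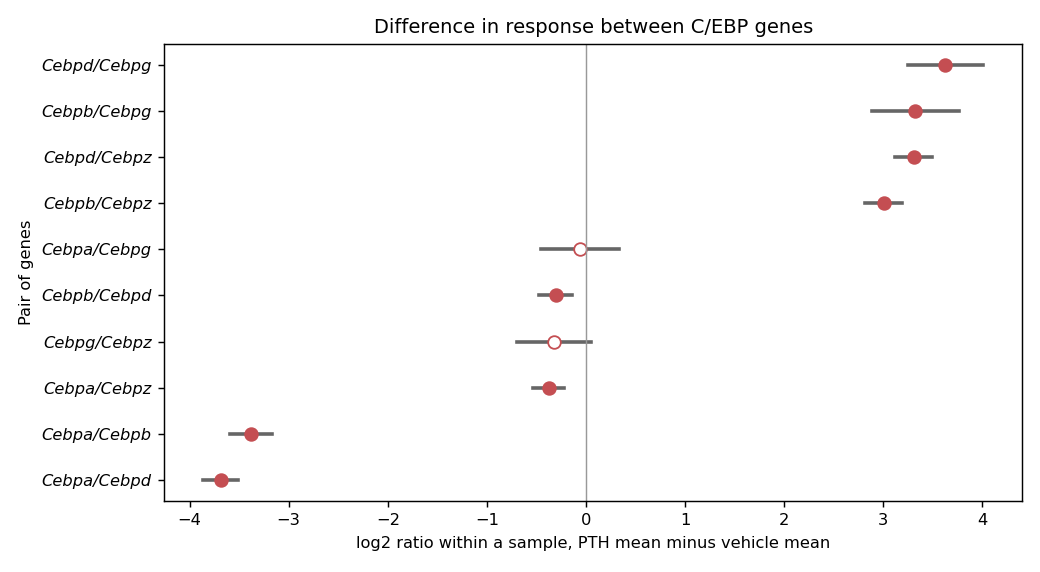
Change in the log2 ratio of each pair of C/EBP genes within a sample, given as the PTH mean minus the vehicle mean. Horizontal lines are 95% intervals, and filled points passed the exact permutation test after adjustment over 10 pairs (adjusted p = 0.0357). The pairs with Cebpb or Cebpd on a single side lie at 3.004 or beyond in either direction, Cebpb/Cebpd lies at -0.30, and the open points are Cebpa/Cebpg and Cebpg/Cebpz.

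Per kilobase of annotated exon, the order of the levels differed between treatments. In the vehicle samples Cebpa (28.7 ± 2.09 CPM per kilobase) and Cebpb (25.9 ± 0.994) were the highest and overlapped. Cebpz followed at 9.61 ± 0.231, and Cebpg (6.04 ± 0.240) and Cebpd (5.46 ± 0.350) were the lowest and also overlapped. With PTH the order was Cebpb at 260 ± 25.4, Cebpd at 67.7 ± 4.55, Cebpa at 27.5 ± 1.59, Cebpz at 12.01 ± 0.994 and Cebpg at 6.07 ± 0.876 CPM per kilobase, and no neighbours in this order overlapped. The place of Cebpg depends on its length: its exons cover 5621 bases together, and its shortest coding transcript has 914 bases. On the shorter length it had 37.2 CPM per kilobase with vehicle and 37.3 with PTH.

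Summed over the bZIP genes Cebpa, Cebpb, Cebpd and Cebpg, the level was 66.1 ± 1.30 CPM per kilobase with vehicle and 361 ± 30.3 with PTH, 5.47 times as much. Cebpb made up 39.2 ± 2.08% of this pool with vehicle and 71.9 ± 1.09% with PTH. The share of Cebpd was 8.27 ± 0.545% and 18.8 ± 0.453%. Cebpa made up 43.4 ± 2.42% with vehicle and 7.62 ± 0.306% with PTH, and Cebpg 9.15 ± 0.403% and 1.70 ± 0.388%. No share overlapped between treatments (exact permutation p = 0.0286 for each, adjusted p = 0.0286 over the 4 genes). The shares of a sample add up to the whole, so these 4 tests depend on each other. They give no evidence on Cebpa or Cebpg apart from the rises of Cebpb and Cebpd. The lower shares of Cebpa and Cebpg came with no detected change in their own CPM. On the length of the shortest coding transcript, chosen after the data were seen, the share of Cebpg was 35.9% with vehicle and 9.46% with PTH, and that of Cebpb was 25.0% and 65.1%.

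**Figure D3:**
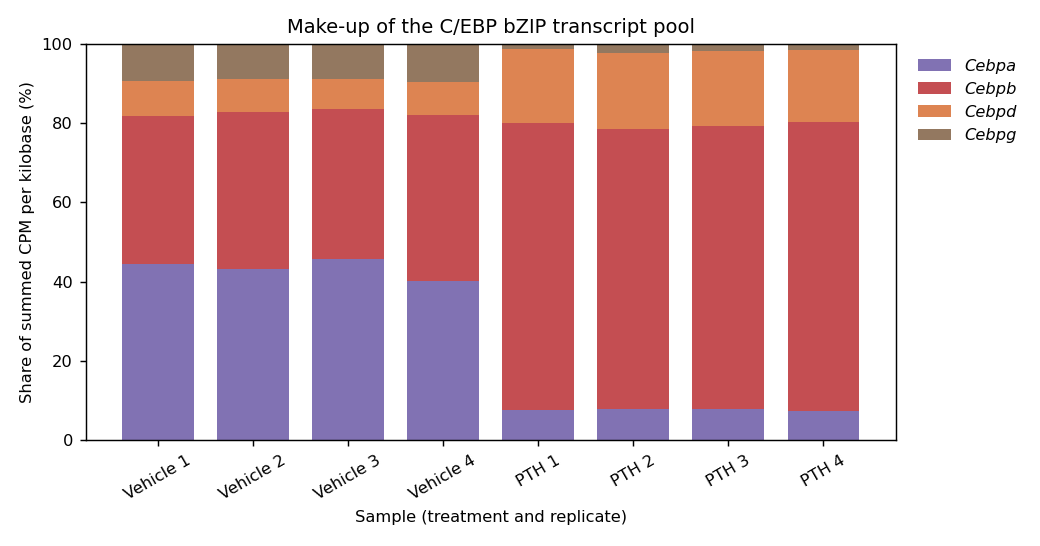
Share of each gene in the summed CPM per kilobase of Cebpa, Cebpb, Cebpd and Cebpg, in percent, with a stacked bar for each of the 8 samples. In the vehicle samples Cebpa and Cebpb hold similar shares (means of 43.4% and 39.2%), and in the PTH samples Cebpb holds 70.5% to 72.9%.

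Several C/EBP genes share bases with a gene on the opposite strand, and the strand setting of the counting is not given in the sources used here, so reads in the shared bases cannot be told apart. Tmem189 overlaps Cebpb by 908 bases and was upregulated by 0.64 on the log2 scale, with means of 63.8 ± 2.68 and 99.4 ± 9.69 CPM (edgeR, adjusted p = 2.83e-05). Spidr, a DNA repair gene, overlaps Cebpd by 1808 bases and differed by -0.19 on the log2 scale (edgeR, adjusted p = 0.160). Cebpzos overlaps Cebpz by 1301 bases and was at 7.08 ± 0.582 CPM in the vehicle and 7.30 ± 2.24 CPM in the PTH samples (log2 fold change 0.04, adjusted p = 0.878, edgeR). Gm45091 overlaps Cebpa by 313 bases and Gm45095 overlaps Cebpg by 353 bases, and neither symbol was found in the table. On the strand of Cebpg, Gm44836 and Gm45094 overlap it and were not found either, and RP23-338G5.4, which shares its assembled locus, had at most 10 counts.

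Neighbours within 100 kb were counted beside the 45.8% of all genes tested that were called. Of the genes tested there, 1 of 5 near Cebpb was upregulated (Tmem189), as were 1 of 3 near Cebpd and 1 of 9 near Cebpz. Near Cebpa 1 of 4 was downregulated, and neither of the genes tested near Cebpg passed the test. The gene near Cebpd was Mzt2, a component of the γ-tubulin complex 23.9 kb away, which rose by 1.64 on the log2 scale (edgeR, adjusted p = 2.37e-08). It was named after its value was seen. Cebpa and Cebpg count as neighbours of each other, Pepd counts near both, and the difference from the share over all genes was not tested.

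By likeness of profile, measured as the root mean square difference of centred log2 CPM over the 8 samples among 14071 genes, Cebpb was nearest to Bhlhe40 and Prr5 (both 0.107) and Cebpd to Kcne4 (0.0646) and Tnfaip6 (0.0901). Bhlhe40 encodes a basic helix-loop-helix repressor, and its mean went from 27.9 to 266 CPM. Kcne4, a potassium channel subunit, had 46.8 and 563 CPM, and Tnfaip6, a hyaluronan-binding protein gene, had 11.8 and 137 CPM. Cebpd stood 15th among the genes nearest to Cebpb (difference 0.174), and Cebpb stood 17th among those nearest to Cebpd. The measure takes PTH and vehicle samples together, so for these genes a small difference mostly reflects a rise of similar size with PTH. The nearest genes to the remaining members were Cdc27 and Kctd12 for Cebpa, Timm44 and Man2c1 for Cebpg, and Apex2 and Smad5 for Cebpz, at differences between 0.0410 and 0.0474. These smaller differences do not mark closer matches, because these members varied little. The root mean square of their own centred values was 0.0877 for Cebpa, 0.134 for Cebpg and 0.175 for Cebpz. For Cebpb and Cebpd it was 1.66 and 1.82.

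The lists that follow are given by their counts and medians, and none was tested against the rest of the genes. Of 6 tested genes for bZIP proteins that pair with C/EBP, 4 were upregulated and 2 did not pass the test, where 23.3% of all genes tested were upregulated. Their median log2 fold change was 0.48, beside -0.000814 over all genes tested. Atf3, a stress-induced factor, went from 8.41 ± 1.80 to 22.4 ± 2.70 CPM (log2 fold change 1.41), and Batf, an AP-1 family factor, from 1.66 ± 0.384 to 3.77 ± 0.863 CPM (1.18). Atf4, the factor of the amino acid response, rose by 0.49 and Atf5 by 0.46 on the log2 scale. Atf2 had a log2 fold change of -0.23 that missed the threshold (adjusted p = 0.0615, edgeR), and it passed without PTH replicate 1 or without vehicle replicate 1, so that 1 partner was then downregulated. Atf2 was named after its value was seen.

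Of the related PAR-domain bZIP genes and their antagonist, 2 of 4 were upregulated and 2 downregulated, where 23.3% and 22.5% of all genes tested were. Nfil3, which encodes a repressor at sites related to those of C/EBP, had 13.1 to 14.4 CPM in the vehicle samples and 228 to 297 CPM in the PTH samples (log2 fold change 4.23, adjusted p = 1.07e-11, edgeR). Each PTH sample was far above each vehicle sample. Hlf rose by 1.55 on the log2 scale, while Dbp, a clock output gene, decreased by 1.63 and Tef by 0.99.

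Among 10 transcription factors that act on C/EBP genes, 5 were upregulated and 2 downregulated (median log2 fold change 0.48). The shares over all genes tested were 23.3% and 22.5%. Crem, the cAMP-responsive modulator, went from 8.12 ± 1.24 to 235 ± 36.0 CPM (log2 fold change 4.86). Stat3, which acts downstream of IL-6 type cytokines, went from 166 ± 1.38 to 346 ± 33.1 CPM (1.06), and the Krüppel-like factor gene Klf4 from 89.2 ± 8.98 to 325 ± 27.4 CPM (1.87). Klf5 rose by 1.73 and Nfkb1 by 0.80 on the log2 scale. Nr3c1, the glucocorticoid receptor, went from 187 ± 7.43 to 94.8 ± 3.07 CPM (-0.98), and Creb1 decreased by 0.28.

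Of 12 genes that govern the stability, translation or phosphorylation of C/EBP proteins, 6 were upregulated and 2 downregulated, against 23.3% and 22.5% of all genes tested (median log2 fold change 0.11). All 3 Tribbles genes, a family that includes adaptors between C/EBPα and the ubiquitin ligase COP1, were upregulated. Trib1 went from 6.98 ± 0.992 to 20.8 ± 1.37 CPM (log2 fold change 1.57), Trib2 from 62.9 ± 2.86 to 150 ± 20.7 CPM (1.26), and Trib3 from 2.98 ± 0.606 to 5.45 ± 0.0567 CPM (0.87). Fbxw7, part of another ubiquitin ligase, rose by 0.47. Rfwd2, which encodes COP1, rose by 0.24 and Gsk3a by 0.19, and each lost its call in several alternatives. Gsk3b decreased by 0.26 and Mapk3 by 0.21. The downregulated count was 4 without PTH replicate 1 and 1 without vehicle replicate 1.

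Inflammatory genes with known C/EBP sites included Il6 and Ptgs2, which were near silent or low with vehicle. Of 9 tested, 6 were upregulated and 3 did not pass the test (median log2 fold change 0.50), while 23.3% of all genes tested were upregulated. Il6 had 0, 2, 4 and 4 counts in the vehicle samples and 8818 to 10113 counts in the PTH samples, or 227 ± 31.3 CPM. Ptgs2, the inducible prostaglandin synthase, went from 2.69 ± 1.18 to 153 ± 16.7 CPM (log2 fold change 5.82). Beyond these the changes were smaller: Serpina3n rose by 0.86, Saa3 by 0.79, Cd14 by 0.50 and Hp by 0.47 on the log2 scale. Saa3, Cd14 and Hp overlapped between treatments, and all 3 lost their call without vehicle replicate 3, where 3 genes remained called. Without PTH replicate 1, 1 gene was downregulated (Cp, named after its value was seen). Macrophages also express Cd14, and the part of the macrophage marker difference in these values was not tested.

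Osteoblast and adipogenic genes linked to C/EBP were read against the 45.8% of all genes tested that were called in either direction. Of 7 osteoblast genes, Igf1 was upregulated, from 519 ± 6.44 to 670 ± 65.4 CPM (log2 fold change 0.37), Runx2 was downregulated, from 116 ± 5.70 to 92.3 ± 8.97 CPM (-0.33), and 5 did not pass the test (median 0.04). Of 16 adipogenic genes, 2 were upregulated, 4 were downregulated and 10 did not pass (median 0.09). Pparg, the master regulator of fat cell differentiation, went from 16.04 ± 1.42 to 5.67 ± 0.573 CPM (-1.50). Dgat2, an enzyme of triglyceride synthesis, went from 9.74 ± 1.52 to 15.3 ± 2.99 CPM (0.66). The upregulated count was 4 without PTH replicate 4 or vehicle replicate 1, and 1 without vehicle replicate 3.

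Genes of the amino acid and redox response, in which ATF4 and C/EBPγ take part, gave 6 of 12 upregulated and 3 downregulated (median log2 fold change 0.29), beside 23.3% and 22.5% of all genes tested. Ddit4, an inhibitor of mTORC1 signalling, went from 34.5 ± 3.08 to 173 ± 10.9 CPM (2.33). Cth (1.84), Gclc (1.30) and Slc7a11 (0.91), which serve cysteine and glutathione supply, rose on the log2 scale, as did Trib3 and Atf5. Chac1 (-0.63), Phgdh (-0.50) and Sesn2 (-0.48) fell, and the call of Chac1 was lost in several alternatives.

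Cebpz was set beside 21 nucleolar ribosome assembly genes, of which 11 were upregulated and 2 downregulated (median log2 fold change 0.28). Of all genes tested, 23.3% were upregulated and 22.5% downregulated. The largest increase was that of Nop56, a core protein of box C/D particles, from 36.4 ± 1.43 to 63.6 ± 9.07 CPM (0.81), and the largest decrease that of Wdr12, from 15.6 ± 1.25 to 10.7 ± 1.15 CPM (-0.54). Of the 3 subunits of NF-Y, the main CCAAT-binding complex, Nfyb was upregulated (log2 fold change 1.08) and Nfyc was downregulated (-0.28, adjusted p = 0.0323, edgeR). Without PTH replicate 2 or 3, or vehicle replicate 1, 2 or 4, Nfyc lost its call and the downregulated count was 0.

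**Figure D4:**
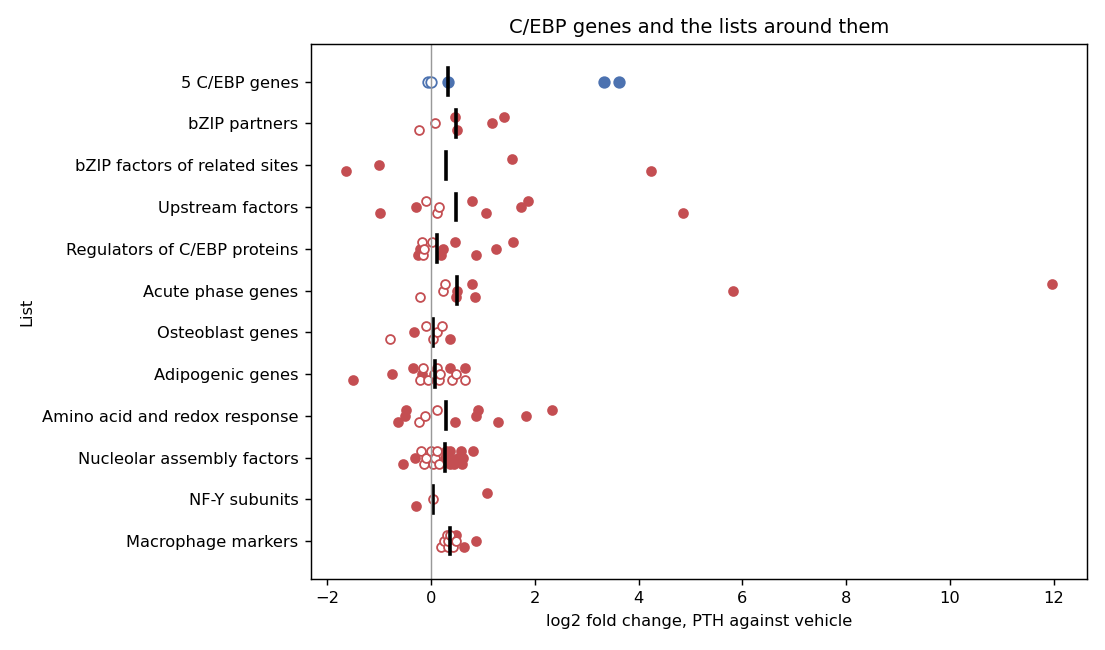
Log2 fold change (PTH against vehicle) of the 5 C/EBP genes (blue) and of the tested genes of 11 lists around them (red). Filled points passed an adjusted p under 0.05, open points did not, and black bars are medians. Cebpb and Cebpd stand at 3.33 and 3.63. The point at 11.97 is Il6, which had at most 4 counts in a vehicle sample.

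The markers of other cells that use C/EBP proteins gave the following values. Of 11 macrophage markers 3 were upregulated and 8 did not pass the test (median log2 fold change 0.37), where 23.3% of all genes tested were upregulated, and 10 were upregulated without vehicle replicate 4. Among these, Lyz2 went from 914 ± 187 to 1417 ± 203 CPM and Tyrobp from 19.6 ± 3.91 to 35.7 ± 8.33 CPM, while Csf1r (69.0 ± 18.9 and 79.0 ± 10.3 CPM) and Adgre1 (68.7 ± 18.6 and 81.7 ± 4.2 CPM), named here as defining markers, did not pass. The part of macrophages in the C/EBP values was not tested. Of 8 granulocyte markers 1 had enough counts to be tested, and S100a9, Ltf, Elane and Ngp were at 0 in every sample. The sum of the adipocyte markers was 34.8 to 54.9 CPM with PTH and 39.8 to 55.5 CPM with vehicle, and of 11 osteoblast markers 4 were downregulated (Sp7, Dmp1, Pth1r and Runx2) and 7 did not pass the test, where 22.5% of all genes tested were downregulated.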

How the data were processed

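From poly(A)-enriched libraries, the authors aligned reads with HISAT2 to GRCm38 (mm10), assembled transcripts with StringTie2 and deposited whole-number counts per gene, made by a companion script from transcript coverage and not normalized. The annotation release, the strand setting and the read length given to that script are not given in the sources used here, and the latter scales all counts. Of 47706 rows, 26477 had a count. Where a symbol had several rows, the row with the highest mean count was used.

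PTH and vehicle were compared in edgeR 4.0.16 (R 4.3.3) with TMM normalization, filterByExpr (minimum count 10, minimum total count 15), the two-sided quasi-likelihood test and Benjamini-Hochberg adjustment over 16736 genes. CPM used TMM-scaled library sizes. No minimum fold change was set. Single values were compared by exact two-sided permutation tests written in Python 3.11.15 with NumPy 2.4.6, ratios with a pseudocount of 0.1 CPM. Totals of 33605610 to 56090654 leave Cebpe and other genes of few counts untested.

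Alternatives were DESeq2 1.42.0, its size factors in edgeR, no filter, a replicate block, leaving out each sample, halved counts, counts summed by symbol, a pseudocount of 1 CPM and other length scales. Same-numbered samples showed no shared deviation from their group means (correlations from -0.041 to 0.027). No source used here says whether they were paired, and these correlations cannot settle it. No 2 samples were copies.

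The members and gene lists were chosen with earlier results of these data known. Named genes are the members, Cebpe, Ddit3, overlapping genes, the called genes with the largest increase and decrease of each list (any called gene in lists of at most 12), the 2 nearest profiles (mean 1 CPM or more), and Tnfsf11 and Pth1r as checks. Atf2, Cp and Mzt2, the macrophage markers Csf1r and Adgre1 and the granulocyte markers at 0 fall outside this rule and were chosen after their values were seen.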

Additional observations from a re-analysis of the deposited data

Results flagged for a closer look

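Of 50 groups of 4 samples examined, 4 held a sample far from the rest by Dixon's criterion, and chance alone marks about 1 in 20 groups. In PTH replicate 1, Tnfsf11 had 157 CPM, whereas the other PTH samples had 115 to 120 CPM. Spidr, which overlaps Cebpd, had 13.4 CPM in vehicle replicate 1 and 17.3 to 17.5 CPM in the other vehicle samples. Without that sample its log2 fold change was -0.28, which passed the threshold. In PTH replicate 4 the Cebpa/Cebpz log2 ratio was 0.48, against 0.33 to 0.35 in the other PTH samples. In the same sample the Cebpd/Cebpz log2 ratio was 2.32, against 2.12 to 2.15. PTH replicate 4 had the lowest Cebpz of the PTH samples, 51.3 CPM.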

How the results depend on the processing

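Under 14 alternatives each, the 5 C/EBP genes kept their call or lack of one. Every alternative scaled the samples by TMM or by DESeq2 size factors. The TMM factors were 0.914 to 0.990 in the PTH and 1.031 to 1.061 in the vehicle samples, without overlap. Calls without such scaling were not tested, which matters most for genes with small or no detected changes, Cebpa, Cebpg and Cebpz. The log2 fold change was 3.28 to 3.39 for Cebpb, 3.59 to 3.68 for Cebpd and 0.26 to 0.36 for Cebpz (adjusted p from 0.00109 to 0.0143, edgeR or DESeq2), and -0.11 to -0.03 for Cebpa. That of Cebpg lay between -0.07 and 0.08 and was called in none. With the sample number as a replicate block, the values were -0.06 for Cebpa, 3.32 for Cebpb, 3.63 for Cebpd, 0.00 for Cebpg and 0.32 for Cebpz, and 3571 genes were upregulated and 3432 downregulated. The same block raised the number of upregulated macrophage markers to 6. With no division by length, Cebpd gained 21.7 percentage points of the bZIP pool with PTH in place of 10.5, and Cebpg changed by -15.5 in place of -7.44, or by -26.4 with the shortest coding transcript. The remaining results covered list genes and list counts, the overlapping genes, the nearest profiles, Tnfsf11 and Pth1r. Among them 56 calls were lost, 39 were gained and 24 list counts moved over all alternatives, and none reversed.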
